A study of Mus musculus with 7 samples.

Results

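Smooth muscle and pericyte contractile genes were examined in transplanted mouse mammary tumours of the lines Met1 and DB7. The set holds 9 genes, namely Acta2, Myh11, Cnn1, Tagln, Mylk, Myl9, Rgs5, Des and Cspg4, picked by name as markers shared by myoepithelium, pericytes and myofibroblasts. Every probe set (a group of short probes that reports on one transcript) whose only platform gene symbol was one of these genes was taken. The 9 genes, of 12393 with a probe set of their own, are covered by 18 of the 22626 probe sets that are not controls. RNA of 3 Met1 and 4 DB7 samples of transplant tumours was measured on 1-colour Affymetrix arrays, 1 array per sample. Both lines come from mammary tumours driven by a polyoma middle T transgene, and Met1 is known to metastasise readily and DB7 seldom. The series' design text instead describes tumours of F1 animals from AKR/J and DBA/2J outcrosses to PyMT, and the sample labels were followed here. The labels give no treatment of the tumours, no host strain and no age, and both groups carry a middle T transgene. Whether the tumours grew in different animals is not stated, so p-values reflect the spread among these samples alone, and that spread may be technical.

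Smooth muscle cells contract when calcium and calmodulin activate myosin light chain kinase, which phosphorylates the regulatory light chain of myosin and lets it pull on actin filaments. Calponin, transgelin and desmin belong to the filament apparatus of such cells, and serum response factor with its myocardin-family partners drives many of these genes through the CArG box, a short AT-rich promoter element. In a mammary tumour the same genes can be expressed by myoepithelial cells around the ducts, by pericytes and smooth muscle of vessels, and by myofibroblasts of the stroma. In these bulk samples fewer cells of a type and less RNA per cell cannot be told apart, nor can RNA of host and tumour cells.

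Arrays of one line were closely similar across all probe sets, with correlations of 0.994 to 0.996 within Met1 and 0.986 to 0.992 within DB7, against 0.967 to 0.972 between the lines. The DB7 arrays were not uniform. The mean log2 signal of a list of fibroblast and myofibroblast markers was 9.56 in DB7 1 and 8.93 in DB7 4, but 8.32 in DB7 2 and 7.98 in DB7 3, while the Met1 arrays lay between 8.93 and 9.49. Results that rest on DB7 1 or DB7 4 are therefore given with and without them. The luminal epithelial markers averaged 8.97 to 9.21 in Met1 and 9.18 to 9.31 in DB7, and 8 of 9 passed the intensity filter described next.

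No detection calls were used here, so a probe set was tested where 3 or more of the 7 arrays read it higher than that array's median signal. Of the 18 probe sets 8 passed, representing Acta2, Tagln, Rgs5, Des, Mylk and Cspg4. Myh11, Cnn1 and Myl9 did not pass with any probe set. Across the array 31% of the 11704 tested probe sets differed between the lines (limma, adjusted p under 0.05), with 13.4% of the tested higher and 17.6% lower in Met1. Among the contractile and pericyte genes 4 of the 8 tested probe sets were higher in Met1 and 0 were lower, and the 4 were those of Rgs5 and Mylk. Of these, Mylk 1425505_at passed the filter through the Met1 arrays alone. Mylk 1425506_at and Rgs5 1420941_at passed it through the Met1 arrays and DB7 1, largely the group where they were high. Where all 7 arrays had to lie above the median, 1 of 4 tested member probe sets was called. In the fit without the intensity filter the same 4 of 18 probe sets passed, 22.2% against a background of 17.8% (7.92% higher and 9.87% lower in Met1), so the share called in either direction was near that of the array. The groups did not overlap at 4 of the 18 probe sets, all higher in Met1, where 27.5% of all probe sets did not overlap and 11.2% lay higher in Met1. These 4 were among the 8 tested, and of all tested probe sets 39.4% did not overlap and 16.7% lay higher in Met1. The median difference, Met1 minus DB7 on the log2 scale, was 0.05 over the 18 probe sets and -0.05 over all 22626. By probe set the members thus did not shift as a block, and 10 of the 18 means were higher and 8 lower in Met1. Of the 18, 9 lay below the array median on all 7 arrays. Each gene was also taken at its brightest probe set, a tested probe set being preferred. The median difference was then 0.44 over the 9 genes and 0.49 over the 6 tested. Over all tested probe sets, not genes, it was -0.04. A median over all genes taken in the same way was not computed, so no shift of the set is read from these values.

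**Figure D1:**
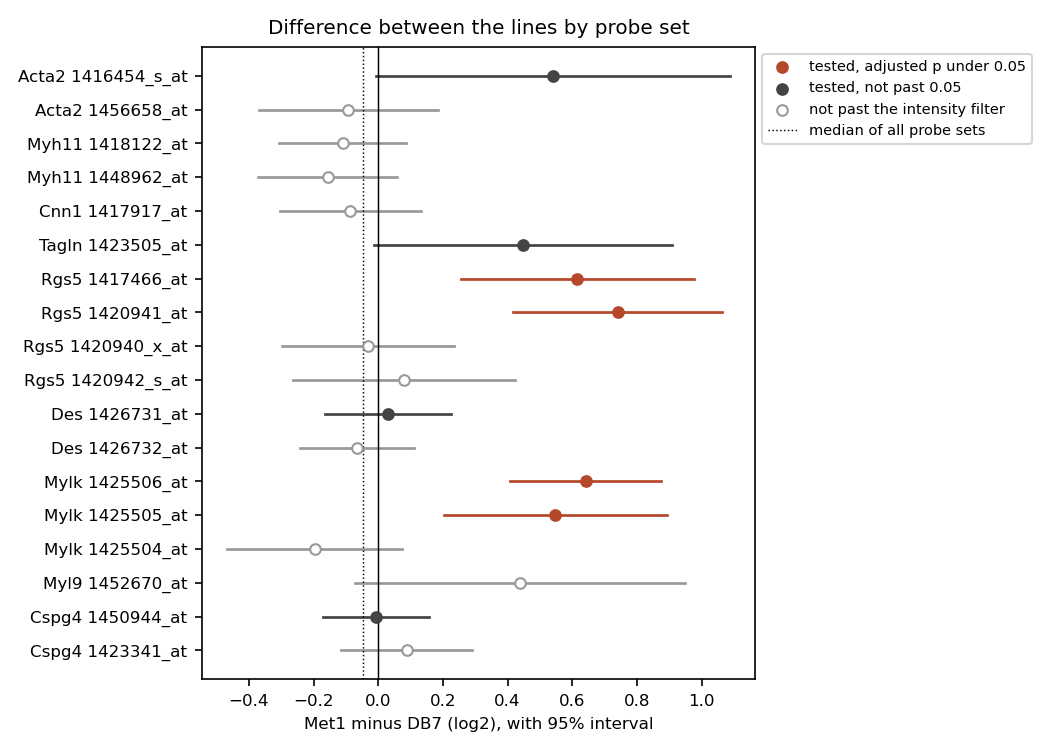
Difference between the lines (Met1 minus DB7, log2 scale) for each of the 18 probe sets, with its 95% interval; filled points passed the intensity filter, open points did not and take their interval from the fit of all probe sets. The 4 probe sets of Rgs5 and Mylk in red have intervals above 0, those of Acta2, Tagln and Myl9 lie to the right but reach 0, and the rest lie around 0.

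Rgs5 was higher on every Met1 array than on any DB7 array at its 2 tested probe sets. It encodes a regulator of G protein signalling that is used as a marker of pericytes. At 1417466_at the log2 signal was 8.36, 8.45 and 8.61 in Met1 and 8.21, 7.94, 7.47 and 7.81 in DB7 1 to 4. The lowest Met1 array stood only slightly above DB7 1, and DB7 3 was the lowest. The means were 8.47 ± 0.12 and 7.86 ± 0.31 (SD, n = 3 and 4), a 1.53-fold difference (0.62 log2, SE 0.16; limma, adjusted p = 0.0177). At 1420941_at the values were 6.92, 7.23 and 7.24 in Met1 and 6.63, 6.28, 6.10 and 6.54 in DB7, and again the groups did not overlap. The difference was 1.67-fold (0.74 log2, SE 0.14; limma, adjusted p = 0.00462).

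The other 2 probe sets of Rgs5 did not show this difference. They lay below the array median on all 7 arrays and were not tested. At 1420940_x_at the signal ranged from 6.12 to 6.43 in Met1 and from 6.07 to 6.52 in DB7, and at 1420942_s_at from 5.71 to 5.85 and from 5.31 to 6.06. Their differences were -0.03 (95% interval -0.30 to 0.23) and 0.08 (-0.26 to 0.42). The suffixes mark probes that match more than one transcript. The call at 1417466_at was lost without Met1 2 (limma, adjusted p = 0.0572) or Met1 3 (0.0768). The call at 1420941_at held with each array left out in turn, the highest adjusted p being 0.0263 (limma). Without DB7 1 and DB7 4 the differences were 0.77 and 0.94.

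Mylk was also higher in Met1. It encodes the myosin light chain kinase that starts contraction, and from an internal start of the same gene a short muscle protein, telokin. At 1425506_at the log2 signal was 7.05, 7.26 and 7.02 in Met1 and 6.62, 6.33, 6.37 and 6.56 in DB7, so all Met1 arrays lay above all DB7 arrays. The difference was 1.56-fold (7.11 ± 0.13 against 6.47 ± 0.14, SD, n = 3 and 4; 0.64 log2, SE 0.10; limma, adjusted p = 0.00182). At 1425505_at the Met1 arrays were close together at 6.79, 6.78 and 6.83. The DB7 arrays were spread over 6.51, 5.87, 6.16 and 6.48, all below Met1. This was a 1.46-fold difference (0.55 log2, SE 0.15; limma, adjusted p = 0.0241).

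The third probe set of Mylk, 1425504_at, went the other way without being tested. It read 5.66, 5.51 and 5.50 in Met1 and 6.09, 5.65, 5.61 and 5.66 in DB7, all below the array median, with a difference of -0.20 (95% interval -0.47 to 0.07). DB7 1 stood apart there, above 3 DB7 arrays that lay close to Met1 1. The call at 1425505_at was lost without DB7 3 (limma, adjusted p = 0.0598), and this probe set missed the filter when any Met1 array was left out, since only the Met1 arrays exceeded the median. Having passed the filter through the Met1 group alone, it had to lie higher in Met1 to be tested. The call at 1425506_at held with each array left out, the highest adjusted p being 0.0113 (limma).

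**Figure D2:**
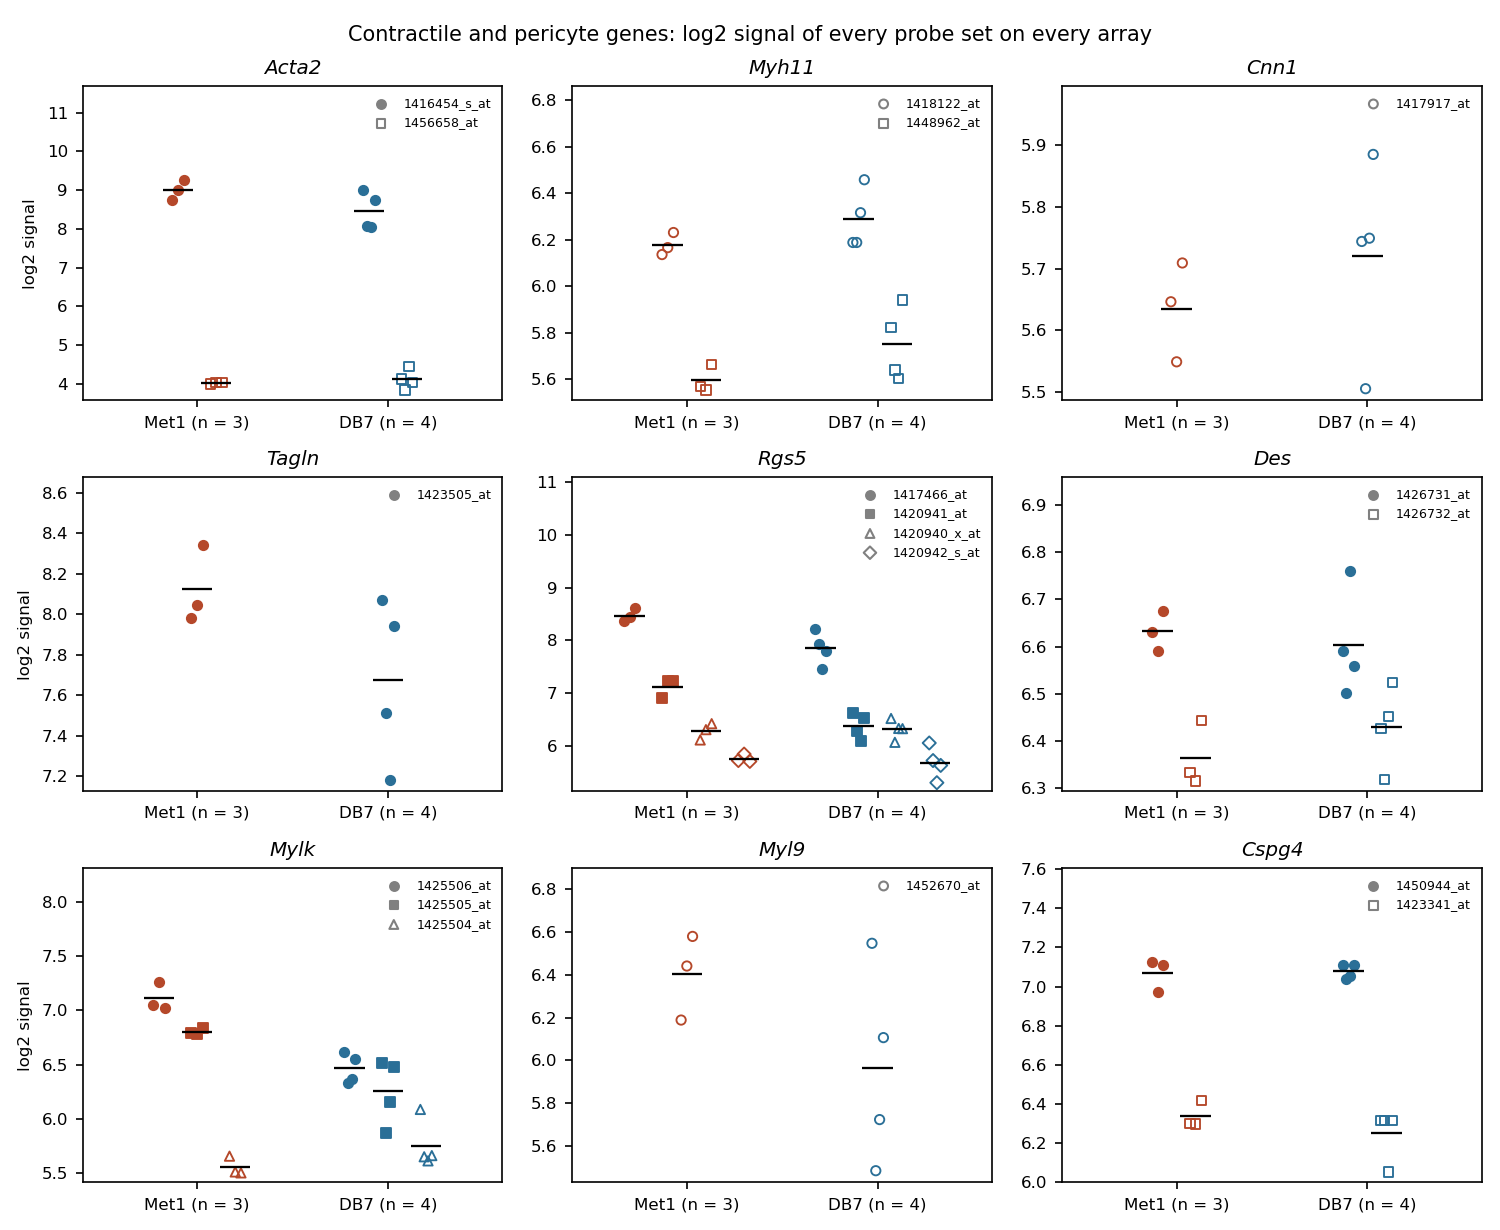
Log2 signal of each array (points) and the group mean (bar) at every probe set of the 9 genes, for 3 Met1 and 4 DB7 arrays; panels have their own vertical scale, symbols separate probe sets, and open symbols did not pass the intensity filter. The filled symbols of Rgs5 and Mylk separate the lines, whereas the DB7 points of Acta2, Tagln and Myl9 spread into and below the Met1 range.

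Acta2, Tagln and Myl9 had higher Met1 means, but in each gene DB7 1 lay inside the Met1 range. Acta2 encodes smooth muscle alpha-actin, the usual marker of myofibroblasts and myoepithelium. At 1416454_s_at it read 8.74, 9.01 and 9.27 in Met1 and 9.0, 8.08, 8.05 and 8.74 in DB7 1 to 4. DB7 1 lay inside the Met1 range, DB7 4 equalled its lowest array, and DB7 2 and DB7 3 lay below all Met1 arrays. The difference was 0.54 log2 (9.01 ± 0.27 against 8.47 ± 0.48, SD, n = 3 and 4; 95% interval -0.01 to 1.09; limma, adjusted p = 0.125). The other Acta2 probe set, 1456658_at, was at 3.84 to 4.45 on all 7 arrays and gave a difference of -0.09. The bright one carries the suffix of probes shared between transcripts, and its signal from other actin genes was not tested. The smooth muscle gamma-actin Actg2 was at 5.23 to 5.39 in Met1 and 4.89 to 5.25 in DB7, and the skeletal actin Acta1 at 4.30 to 4.45 on all 7 arrays, all below the array median.

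Tagln encodes transgelin, an actin-binding protein of smooth muscle. Its signal was 7.98, 8.05 and 8.34 in Met1 and 8.07, 7.51, 7.18 and 7.94 in DB7. As for Acta2, DB7 1 fell inside the Met1 range and DB7 2 and DB7 3 were lowest. The difference was 0.45 log2 (95% interval -0.01 to 0.91; limma, adjusted p = 0.129). Myl9 encodes the regulatory light chain that Mylk phosphorylates. It read 6.19, 6.44 and 6.58 in Met1 and 6.55, 5.48, 5.72 and 6.11 in DB7, above the array median on 1 of 7 arrays, and was not tested. Its difference was 0.44 (95% interval -0.07 to 0.95), and its order within DB7 again put DB7 1 first and DB7 4 second.

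The calls for Acta2 and Tagln depended on the arrays used. Without DB7 1 the differences were 0.72 and 0.58 and passed (limma, adjusted p = 0.0286 and 0.0450), and without DB7 1 and DB7 4 they were 0.94 and 0.78 (limma, adjusted p = 0.00388 and 0.00684). DB7 1 and DB7 4 were the highest DB7 arrays of both genes, so leaving them out raises Met1 minus DB7 by construction. Without those 2 arrays the Myl9 difference was 0.80, DB7 1 and DB7 4 being its highest DB7 arrays too. Both DB7 1 and DB7 4 lay above both DB7 2 and DB7 3 at 9 of the 18 probe sets and at 17.2% of all probe sets, a count made after the values had been seen. At 17 of the 18 the range over DB7 was wider than that over Met1, as at 75.9% of all probe sets, which the larger number of DB7 arrays favours.

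**Figure D3:**
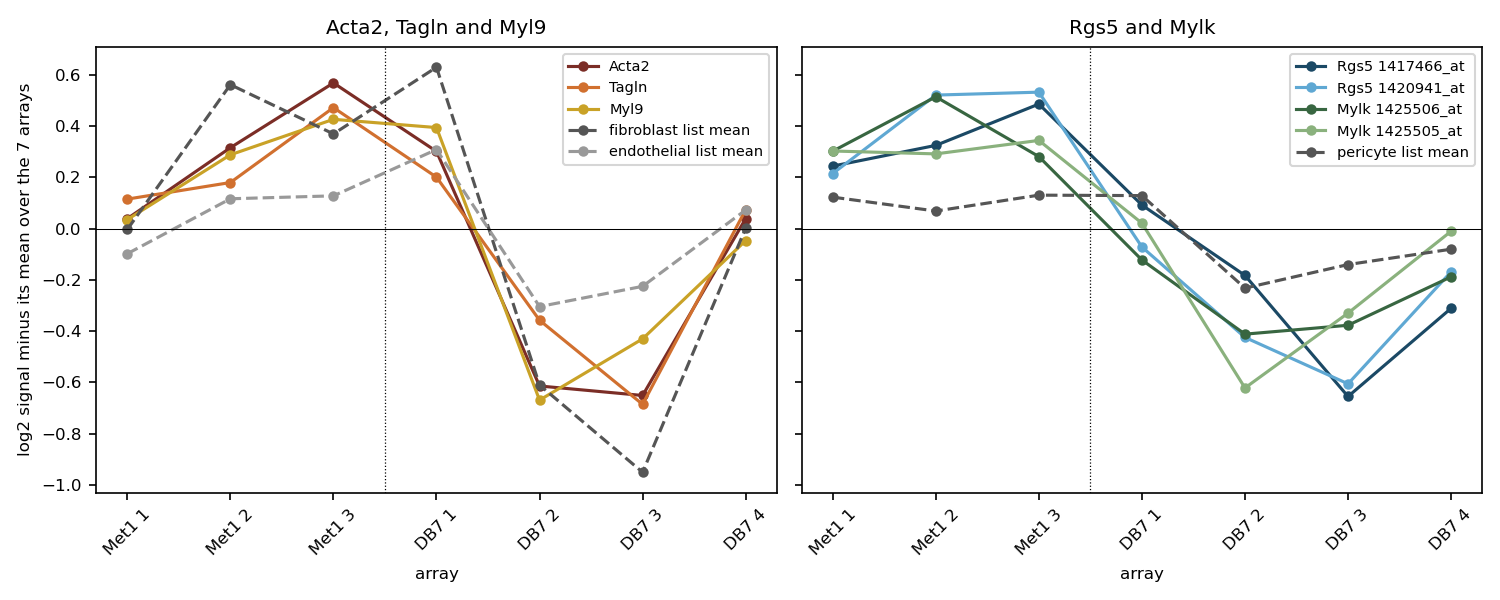
Log2 signal on each of the 7 arrays minus the mean over the 7, for Acta2 (1416454_s_at), Tagln and Myl9 with the mean of the fibroblast and endothelial lists (left) and for the tested probe sets of Rgs5 and Mylk with the mean of the pericyte list (right). On the left all lines fall in DB7 2 and DB7 3 and return in DB7 1 and DB7 4; on the right the Rgs5 and Mylk lines stay lower in all 4 DB7 arrays than in Met1.

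CArG boxes are shown for Acta2 and Myl9 because these were the members whose promoter windows held one. RefSeq promoter windows (assembly GRCm38.p6, 250 bases before to 50 after the start) were matched for 7 of the 9 genes, all but Tagln and Myh11. The CArG box was searched as its 10-base consensus, which reads the same on both strands, and as the form with a single G or C among its 6 central bases. The capitals mark the box, and each line runs 5′ to 3′ on the gene's strand.
Acta2 distal box, chr19:34255428-34255477, minus strand: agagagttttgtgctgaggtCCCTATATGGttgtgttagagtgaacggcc
Acta2 proximal box, chr19:34255378-34255427, minus strand: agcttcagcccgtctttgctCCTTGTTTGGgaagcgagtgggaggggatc
Myl9 distal box, chr2:156775283-156775332, plus strand: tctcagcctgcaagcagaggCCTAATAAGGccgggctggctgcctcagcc
Myl9 proximal box, chr2:156775345-156775394, plus strand: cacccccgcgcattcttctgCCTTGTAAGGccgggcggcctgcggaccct

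The distal box of Myl9, starting 161 bases before the start of the window's transcript, follows the consensus, and the other 3 hold a single G or C in the centre. The Acta2 boxes start 84 and 34 bases before the start of that window's transcript and lie within the span RefSeq gives the gene, chr19:34240336-34255585. The proximal Myl9 box starts 99 bases before its transcript, and both Myl9 boxes lie upstream of the gene's span, chr2:156775408-156781657. A consensus box was present in 1.63% of all 32851 windows and either form in 9.98%, while 0.822% held at least 2 boxes of either form. The windows of Cnn1, Rgs5, Des, Mylk and Cspg4 held 0 such letters, which says nothing of elements outside them. The window of Mylk lies within the gene, which spans chr16:34745199-35002436, and starts at chr16:34784700. The element CATTCC, known as MCAT, was found on either strand in the windows of Acta2 and Mylk and in 14.7% of all windows, and it was counted separately from the CArG box. A match is a description of letters and not a measured binding site.

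Myh11 and Cnn1, the markers most restricted to differentiated smooth muscle, were below the array median on all 7 arrays. Myh11 encodes smooth muscle myosin heavy chain, and its signal at 1418122_at was 6.14 to 6.23 in Met1 and 6.19 to 6.46 in DB7. At 1448962_at it was 5.55 to 5.66 and 5.60 to 5.94. The differences were -0.11 (95% interval -0.31 to 0.09) and -0.16 (-0.37 to 0.06), and DB7 4 was the highest array of both. Cnn1, calponin of smooth muscle, read 5.65, 5.55 and 5.71 in Met1 and 5.74, 5.51, 5.75 and 5.88 in DB7, with a difference of -0.09 (-0.31 to 0.13). The groups overlapped at all 3 probe sets.

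Des and Cspg4 showed small differences with narrow intervals. Des encodes desmin, the intermediate filament of muscle cells and of some pericytes. At 1426731_at it read 6.63, 6.59 and 6.68 in Met1 and 6.59, 6.50, 6.76 and 6.56 in DB7, a difference of 0.03 (95% interval -0.16 to 0.22; limma, adjusted p = 0.823). Its other probe set ranged from 6.32 to 6.44 in Met1 and from 6.32 to 6.52 in DB7. Cspg4 encodes the proteoglycan NG2 of pericytes. At 1450944_at it read 7.13, 6.97 and 7.11 in Met1 and 7.11, 7.04, 7.05 and 7.11 in DB7, and the difference was -0.01 (-0.17 to 0.16; limma, adjusted p = 0.948). At 1423341_at, not tested, the difference was 0.09 (-0.11 to 0.29). These intervals leave out a 1.53-fold difference in signal like that of Rgs5 at the 2 tested probe sets. The tested Des probe set lay above the array median on only 4 of the 7 arrays. The tested Cspg4 probe set held 5 distinct values over the 7 arrays. How far these signals follow RNA levels was not tested.

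The genes whose profile over the 7 arrays was nearest to Acta2 were found by the root mean square difference of log2 values, each gene centred on its own mean, over 7481 other tested genes. Tagln was the third nearest, at 0.127, where the median gene was at 0.472. The collagen gene Col6a2 was nearest at 0.084, followed by the scavenger receptor gene Lrp1 at 0.121, and after Tagln came Ms4a7 at 0.139 and the basement membrane collagen gene Col4a2 at 0.140. For Tagln the nearest were Stab1 (0.102), Gng11 (0.112), Igfbp3 (0.126), Acta2 (0.127) and Tyrobp (0.127). For Rgs5 they were Leprot (0.073), Cd93, a gene of endothelial cells (0.098), Dst (0.127), Sox10 (0.127) and Pxn, the focal adhesion protein paxillin (0.132). Tagln ranked 48, Mylk 80 and Acta2 271 in likeness to Rgs5, whereas Cspg4 and Des ranked 2397 and 3024. The profiles run over the same 7 arrays and include the difference between the lines, so likeness is a description. The rank of Tagln beside Acta2 moved between 1 and 19 over the alternatives, and was 19 without DB7 1 and DB7 4.

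Among other genes of the contractile apparatus 3 of 9 tested were lower in Met1 and 1 was higher. Over all tested genes, each by its brightest probe set, 30.9% were called, 13% higher and 17.9% lower in Met1. Of 20 listed genes 17 were measured, and 5 of the 9 tested did not pass, with a median difference of -0.22 over the tested genes against -0.04 over all tested probe sets. Tpm1, a tropomyosin, was 1.73-fold lower in Met1 (9.05 ± 0.14 against 9.84 ± 0.06, SD, n = 3 and 4; limma, adjusted p = 0.000289). Cald1, caldesmon, which restrains the myosin ATPase, was 1.84-fold lower (limma, adjusted p = 0.00166). Lmod1, leiomodin of smooth muscle, was 1.69-fold lower (limma, adjusted p = 0.000369), and it was tested through its DB7 arrays alone, so it had to lie lower in Met1 to be tested. The other tested probe sets of Tpm1 and Cald1 also fell, by 0.38 and 0.45 and by 1.38 and 0.72. The 1 that rose was the small heat shock protein gene Cryab, 2.41-fold, named after its value was seen and tested through its Met1 arrays alone; its second tested probe set rose by 1.34. Another Cryab probe set, 1435837_at, missed the filter and differed by -0.14. Without DB7 1 and DB7 4, 2 rose and 2 fell of 8, and Lmod1 was not tested.

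**Figure D4:**
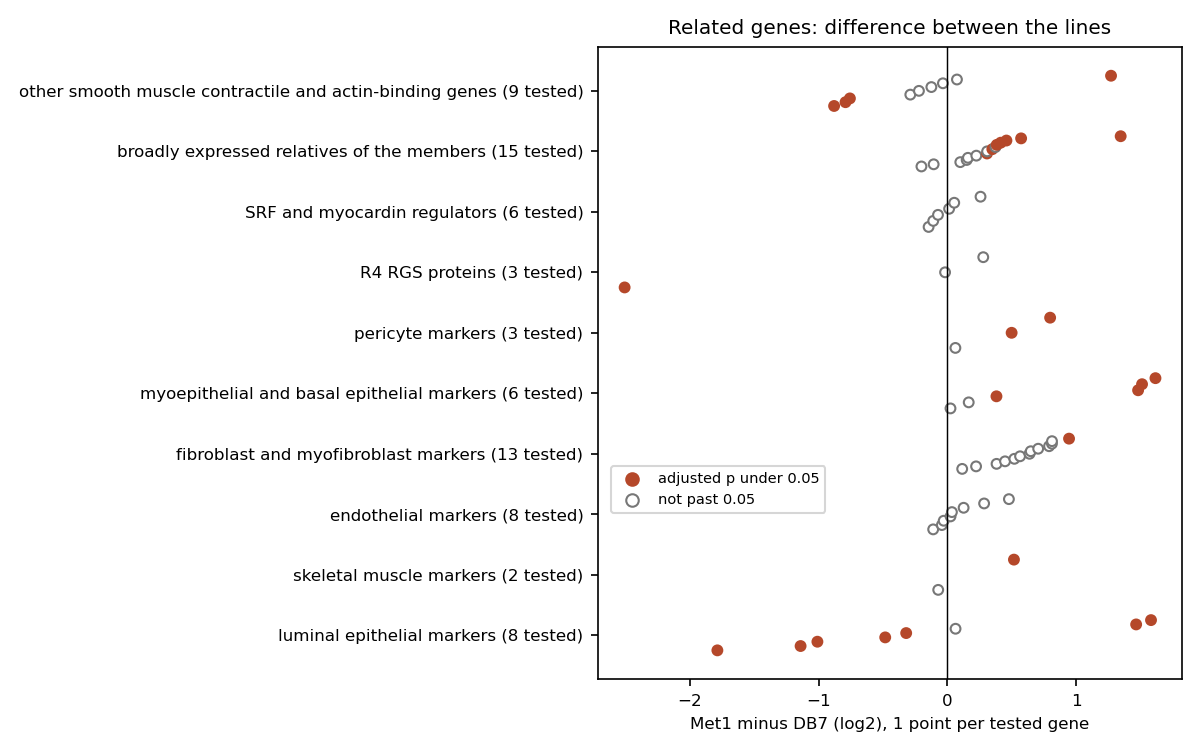
Difference between the lines (Met1 minus DB7, log2 scale) for each tested gene of 10 related lists, by its brightest tested probe set; filled points passed limma's threshold. The contractile list has 3 filled points below 0 and 1 above, the relatives of the members have 7 above 0, and the fibroblast list lies above 0 with 1 filled point.

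The list of broadly expressed relatives of the members held actins, myosins, actin-binding proteins and the intermediate filament genes Vim and Nes. Of its 15 tested genes 7 were higher in Met1 and 0 lower, where 13% of tested genes rose. Actn1, alpha-actinin, rose 2.54-fold (limma, adjusted p = 3.08e-05), although its probe set 1427385_s_at differed by 0.61 without passing (limma, adjusted p = 0.117). Actn4 rose by 0.57. Nes, nestin, rose by 0.46, while its other tested probe set, 1418289_at, differed by 0.19 without passing (limma, adjusted p = 0.177). Among the SRF and myocardin regulators 0 of 6 passed in limma and 0 had an unadjusted p under 0.05; Srf itself differed by -0.11, its partner Elk1 by -0.15, and the coactivator Mrtfa by 0.26 and passed only without DB7 1 and DB7 4 among the alternatives (limma, adjusted p = 0.0332). DB7 1 and DB7 4 were the highest DB7 arrays of Mrtfa, so leaving them out raises its difference by construction. Myocd, myocardin, was at 5.36 to 5.90 on the 7 arrays, below the median. Of the R4 family of RGS proteins, to which Rgs5 belongs, 3 of 7 measured genes were tested. Rgs2 went the opposite way to Rgs5, at 6.92, 7.66 and 7.59 in Met1 and 9.85, 10.14, 10.14 and 9.45 in DB7, a 5.68-fold lower level in Met1 (limma, adjusted p = 7.19e-05), and its second probe set differed by -2.72. Rgs1 and Rgs3 differed by 0.28 and -0.02.

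Markers of the cell types that could hold these transcripts were set beside them, and their part in the differences of Rgs5 and Mylk was not tested. Of the 16 listed pericyte genes 12 were measured, 3 passed the filter and 2 rose, where 13% of all tested genes rose: Mcam by 0.50 and Anpep by 0.80 (limma, adjusted p = 0.0156 and 0.0220), the latter with overlapping groups. The third, Notch3, differed by 0.06 (limma, adjusted p = 0.670), and by -0.23 at its other tested probe set, 1421964_at (0.0804). The call of Mcam was lost without Met1 1 (0.0700) or Met1 3 (0.0579), and that of Anpep without Met1 2 (0.0961), Met1 3 (0.0946), DB7 2 (0.0558) or DB7 3 (0.0583). The defining receptor gene Pdgfrb lay below the median on all arrays, at 6.09 to 6.33 in Met1 and 5.79 to 6.19 in DB7. The mean of the pericyte list was 6.34 to 6.41 in Met1 and 6.04 to 6.40 in DB7 (exact permutation test over the 35 divisions of the arrays, two-sided, p = 0.114; adjusted over the 11 lists 0.210). All lists were chosen with earlier results of these data known, so the permutation p-values of list means are description and no test of a list. Of 11 myoepithelial and basal markers 6 were tested, 4 rose and 0 fell, against 13% and 17.9% of all tested genes. The 4 were led by Itgb4 (1.61), Lamb3 (1.51) and Sparcl1 (1.48). Lamb3 was tested through its Met1 arrays alone, so it had to lie higher in Met1 to be tested. The other 2 tested, Krt5 and Jag2, differed by 0.17 and 0.02 and did not pass (limma, adjusted p = 0.136 and 0.833). Among the defining markers Krt5 was thus tested, while Krt14, Krt17, Trp63, Oxtr and Cdh3 did not pass the filter. Krt14 was at 5.74 to 5.98 in Met1 and 5.51 to 5.74 in DB7. The mean of this list was 6.90 to 7.13 in Met1 and 6.49 to 6.58 in DB7 (exact permutation p = 0.0286, the smallest these arrays can give; adjusted 0.105).

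Fibroblast and myofibroblast markers followed the arrays in which Acta2 and Tagln were high. Of 13 tested genes 1 rose and 0 fell, against 13% and 17.9% of all tested genes, and this was Lox, a collagen cross-linking enzyme (0.94; limma, adjusted p = 0.0446). Its call was lost without Met1 1, Met1 2, Met1 3, DB7 2, DB7 3 or DB7 4 (0.0596 to 0.162), and also under quantile normalization (0.0533), without the intensity filter (0.0633), with the lower-quartile filter (0.0532) and with the replicate block (0.119). Thy1 and Col6a2 differed by 0.38 and 0.64 and did not pass (limma, adjusted p = 0.0888 and 0.0965). Without DB7 1 and DB7 4, 11 of the 13 rose, which the order of the DB7 arrays favours by construction. The list's mean spanned 8.93 to 9.49 in Met1 and 7.98 to 9.56 in DB7 (exact permutation p = 0.371; adjusted 0.511). Of 8 tested endothelial markers 0 passed in limma and 0 had an unadjusted p under 0.05, and the list's mean was 6.67 to 6.90 in Met1 and 6.46 to 7.08 in DB7 (exact permutation p = 0.629; adjusted 0.768). Plvap, Cdh5 and Eng differed by 0.48, 0.28 and 0.13 (limma, adjusted p = 0.168, 0.342 and 0.410). Cdh5 at 1422047_at and Eng at 1432176_a_at, which both missed the filter, differed by -0.36 and -0.01. Without DB7 1 and DB7 4, 2 endothelial markers rose, which the order of the DB7 arrays favours by construction. Skeletal muscle markers were low, with a list mean of 4.97 to 5.06 in Met1 and 4.97 to 5.12 in DB7. Of the 13 listed, 2 were tested. Mb, tested through its Met1 arrays alone, rose by 0.52 and Tnni2 differed by -0.07. The other Mb probe set, 1422420_at, missed the filter and differed by -0.15. Of 8 tested luminal markers 2 rose and 5 fell, against 13% and 17.9% of all tested genes (exact permutation p of the list mean = 0.0857; adjusted 0.189). Gata3 rose by 1.58, Elf5 by 1.46 at one probe set and not at the other (-0.07), and Krt7 fell by 1.79. Foxa1, 1 of the 5, was tested through its DB7 arrays alone, at 6.66 to 7.30 there and 5.70 to 6.28 in Met1, so it had to lie lower in Met1 to be tested. Over the contractile and regulatory lists this permutation p was 0.0286 for the relatives of the members and for the R4 RGS proteins (adjusted 0.105). It was 0.314 for the contractile list and 0.743 for the SRF list. As the lists were chosen with earlier results known, these p-values too are description.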

How the data were processed

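Total RNA of 7 samples was hybridised to 1-colour Affymetrix arrays, per the labels' protocols. RMA and MAS5 stand in the submitters' processing notes, with no role given. The deposited values are 1 summary per probe set, taken as log2 from their range, since no source used here states the log base. The members and all lists were chosen with earlier results of these data known, and 1 of the 11 lists is not reported here.

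The 64 control probe sets were left out. GEO's platform annotation gave exactly 1 symbol to 20380 of 22626 probe sets. Met1 and DB7 were fitted as 2 groups in R 4.3.3 with limma 3.58.1 (eBayes with an intensity trend, two-sided, Benjamini-Hochberg over all tested probe sets, threshold 0.05). A list gene was represented by its brightest tested probe set, and its adjusted p comes from the same fit. Probe sets that missed the filter have intervals from the fit without it. Named genes are all members, the tested genes of each reported list with the lowest p, at most 3, and the 5 nearest to Acta2, Tagln and Rgs5 in profile. Untested list genes (Actg2, Acta1, Myocd, Pdgfrb, Krt14, Krt17, Trp63, Oxtr and Cdh3), Foxa1, Cryab, Krt5, Jag2 and Vim fall outside that rule and were named after their values were seen.

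On simulated data (11704 probe sets, 200 changed, 20 draws) 65.6% of 1.5-fold and 91.6% of 2-fold changes were recovered, with 4.71% false calls. These rates are averages over probe sets of unlike spread. The simulated noise was independent between probe sets, and far fewer were changed than the 31% called in the data. The rates therefore need not hold for these data. Alternatives covered normalization, filters, the variance model, shared probe sets, the replicate number as a block and left-out arrays.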

Additional observations from a re-analysis of the deposited data

Results flagged for a closer look

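Within the 4 DB7 arrays, 29 sets of values were checked for a single array far from the others (18 member probe sets and 11 list means), and chance alone gives about 1 in 20. At the Mylk probe set 1425504_at DB7 1 measured 6.09, while the other DB7 arrays lay between 5.61 and 5.66. At the Cspg4 probe set 1423341_at DB7 3 measured 6.05, while the other 3 DB7 arrays held the same value to 6 decimals, 6.32. Equal values on at least 2 arrays occurred at 7 of the 18 member probe sets and at 42.2% of all probe sets, so the gap at Cspg4 rests on summaries that can coincide.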

How the results depend on the processing

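The Rgs5 probe set 1420941_at and the Mylk probe set 1425506_at passed in all 16 alternatives in which each was tested (limma, adjusted p 0.00118 to 0.0263 and 0.000992 to 0.0132). Both lay above the array median on 4 of the 7 arrays, the 3 Met1 arrays and DB7 1. They thus entered the test largely through the group where they were high, and the stricter filter left both untested. Differing probe sets over the array numbered 3626 (31% of those tested), 2302 without shared probe sets (30.9% of the 7450 then tested), 4337 with array weights (37.1%) and 2306 to 3786 with single arrays left out (20.1% to 32.6%). Member probe sets called numbered 4, 1 of 4 tested under the stricter filter, and 2 to 6 with single arrays left out. Member genes called numbered 2, 1 under the stricter filter (Rgs5), 1 with the replicate block (Mylk), 4 with array weights and 4 without DB7 1 and DB7 4, and 1 to 4 with single arrays left out. With array weights Acta2 and Tagln passed (adjusted p = 0.0347 and 0.0402). The Cspg4 difference at 1450944_at became 0.028 under quantile normalization, 0.030 under median centring, 0.0033 with the replicate block and 0.025 without DB7 1 and DB7 4, with -0.036 to 0.041 when single arrays were left out. That of Des at 1426731_at lay between -0.0042 and 0.082, of Notch3 between -0.021 and 0.15 and of Tnni2 between -0.14 and 0.0074 with single arrays left out. Rgs3 became 0.019 under median centring, 0.0064 with the replicate block and 0.015 without both arrays (-0.078 to 0.013 with single arrays left out). The replicate numbers did not pair the samples: same-numbered deviations correlated at -0.17, -0.05 and 0.02, and 1 of 6 samples matched its own number best. With the replicate block 3 of 8 member probe sets passed, and 1417466_at of Rgs5 did not (adjusted p = 0.0700). The number of arrays and signals near the median limit the untested genes. The cause of these changes was not tested.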
